A study of Mus musculus with 7 samples.

Results

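The genes described here encode enzymes that modify transfer RNA (tRNA), together with the proteins that guide or hold those enzymes. WDR6, the protein whose gene was knocked out, belongs among them as the partner of the ribose methyltransferase FTSJ1. They were chosen by symbol from a list of 60 genes, of which 58 were in the deposited count table of 14819 rows and all 58 were among the 14779 genes tested. The list was drawn up with earlier results of these data known. The expression of *Adat3* and *Pus3* was not analysed here.

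Transfer RNAs carry more chemical modifications than any other class of RNA, and most are added after transcription by dedicated enzymes. Modifications of the anticodon loop tune how codons are read, whereas those of the body of the molecule mainly affect its folding and stability. Several of the enzymes act as a catalytic subunit with a partner that has no catalytic activity of its own, as FTSJ1 does with WDR6, METTL1 with WDR4 and TRMT61A with TRMT6.

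Primary hepatocytes, which make up the parenchyma of the liver, were isolated by collagenase perfusion from male wild-type (WT) mice and from mice that lacked *Wdr6* in the whole body (WDR6-WKO), in which CRISPR–Cas9 had removed an exon of the gene. The cells were cultured overnight in serum-containing medium and received no treatment. Total RNA was sequenced in 4 WT and 3 WDR6-WKO libraries, and the age of the mice was not stated for these cells. The labels do not say that each library came from a separate mouse, so the p-values measure the spread between these samples.

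The libraries held 18982012 to 20069590 counted reads in WT and 17816913 to 23668940 in WDR6-WKO. Levels are given as CPM, reads of a gene relative to a fixed library total, after TMM scaling, which corrects totals for differences in composition. A gene was called when the quasi-likelihood test of edgeR gave an adjusted p under 0.05, with Benjamini-Hochberg adjustment over all genes tested. By this rule 12.8% of all genes tested were called, 6.65% higher and 6.18% lower in WDR6-WKO. Scaling by library totals alone changed that balance over the whole table, to 1212 higher and 696 lower genes from 983 and 914. WDR6-WKO replicate 3 stood apart, with a chi-square of 14.4 and 16.2 per gene against the other WDR6-WKO libraries, compared with 3.84 to 8.34 between WT libraries. Without it 28.6% of all genes tested were called, so the calls below are given with and without it.

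All 8 hepatocyte markers examined were in the table, with the WT level of *Alb* at 7366 ± 730 CPM (s.d., n = 4), and the 6 lymphocyte markers were not in it. Their summed level was 8194 to 9768 CPM in WT and 7576 to 8098 CPM in WDR6-WKO, and *Cps1*, *Apoa1*, *Asgr1* and *Hnf4a* were called lower. The 10 Kupffer cell markers summed to 737 to 808 CPM in WT and 824 to 1029 CPM in WDR6-WKO, and 2 of them, *C1qb* and *C1qc*, were called higher. Of the others, none called, *Timd4* had a log2 fold change of -0.48 and the rest lay above 0. The 5 cholangiocyte markers in the table summed to 3068 to 3360 CPM and 3714 to 4306 CPM, with *Sox9* and *Spp1* called higher. Most of that sum was *Spp1*, at a WT mean of 2980 CPM. *Krt19* and *Krt7* had log2 fold changes of -0.05 and -0.10 and *Epcam* of 0.34, and none of them was called. Sinusoidal endothelial markers summed to 305 to 349 CPM and 286 to 342 CPM, and none of those 8 was called. Stellate cell markers summed to 528 to 585 CPM and 560 to 610 CPM, with *Dcn* called higher and *Rgs5* lower. The part of these cell types in the results below was not tested, and in bulk RNA fewer cells of a type and less RNA per cell cannot be told apart.

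*Wdr6* was the targeted gene and the tRNA modification gene with the largest change. It was counted at 49.0, 40.6, 40.9 and 45.6 CPM in WT replicates 1 to 4 and at 2.58, 2.32 and 2.23 CPM in WDR6-WKO replicates 1 to 3. Every WDR6-WKO library was far below every WT library, and the knockout level was 5.39% of the WT mean. The log2 fold change was -4.20 (95% interval -4.44 to -3.96, adjusted p = 3.44e-12 in the edgeR test), and it stayed between -4.27 and -4.17 when any WDR6-WKO library was left out. An exact two-sided permutation test gave p = 0.0286, the smallest that 4 against 3 samples allow. *Wdr6* lies at chr9:108572311-108578739 on the minus strand of GRCm38, and 383 of its exonic bases, 9.20% of them, are also exonic in *Dalrd3* on the opposite strand. Whether the counting used the strand was not stated, so reads of the pair cannot be told apart in that stretch.

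The mRNA of *Ftsj1*, the catalytic partner of WDR6, did not differ detectably between the genotypes. FTSJ1 methylates the ribose of anticodon-loop nucleotides and works with WDR6 at the wobble base and with THADA at another base of the loop. *Ftsj1* stood at 17.6, 21.5, 21.5 and 20.5 CPM in WT and at 19.8, 21.8 and 19.8 CPM in WDR6-WKO, so that the knockout values lay inside or just above the WT range. Its log2 fold change was 0.02 with a 95% interval from -0.17 to 0.20 (adjusted p = 0.931 in the edgeR test, exact two-sided permutation p = 0.886). *Thada* read 29.4, 31.3, 33.6 and 30.9 CPM in WT and 28.5, 29.9 and 35.5 CPM in WDR6-WKO. The WDR6-WKO libraries spread over a wider range than the WT libraries and covered it, replicate 3 being the highest of all. For *Thada* the log2 fold change was -0.00 with a 95% interval from -0.18 to 0.17 (adjusted p = 0.987 in the edgeR test), and -0.10 without that library.

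**Figure D1:**
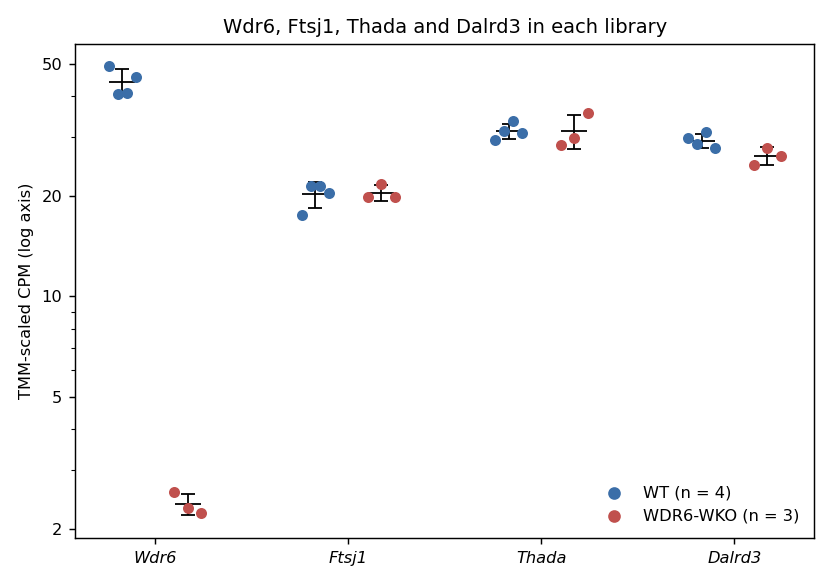
Level of *Wdr6*, *Ftsj1*, *Thada* and *Dalrd3* in each library, as TMM-scaled CPM on a log axis, with 4 WT libraries in blue and 3 WDR6-WKO libraries in red, and the mean and s.d. as black lines. *Wdr6* falls from 40.6 to 49.0 CPM to 2.23 to 2.58 CPM, while the ranges of the other genes overlap between the genotypes.

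*Dalrd3* supports the methylation of a cytidine in the anticodon loop of arginine tRNAs together with METTL2, and its transcript runs into the end of *Wdr6* from the other strand, at chr9:108569886-108572774. It read 29.8, 28.6, 31.1 and 27.9 CPM in WT and 24.8, 28.0 and 26.4 CPM in WDR6-WKO. Of the WDR6-WKO libraries 1 and 3 lay below every WT library and replicate 2 just above the lowest of them. Its log2 fold change was -0.15 (95% interval -0.31 to 0.00) and did not pass the edgeR test (adjusted p = 0.189) or the exact permutation test (two-sided p = 0.0857). The overlap with *Wdr6* covers 15.6% of the exonic length of *Dalrd3*.

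Of the 58 genes tested, 6 were called, or 10.3%, against 12.8% of all genes tested. *Wdr6* was the only member called lower, and *Qtrt1*, *Trmt61a*, *Wdr4*, *Dus3l* and *Trmt1* were called higher, 8.62% of the members beside 6.65% of all genes. CPM ranges did not overlap between the genotypes for 16 members, or 27.6%, against 23.5% of all genes tested. By direction, 14 members, or 24.1%, lay wholly higher in WDR6-WKO, against 11.8% of all genes, and 2, *Wdr6* and *Trmt1l*, or 3.45%, wholly lower, against 11.7%. The study's thresholds, an unadjusted p under 0.05 and a log2 fold change of 0.35 or more in either direction, were passed by 5 members, or 8.62%, against 10.4% of all genes. Over both directions together, the shares of members were near those of the whole table by each of these rules. Fold changes were also small in general, with a median absolute log2 value of 0.12 over the members and 0.13 over all genes.

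More members were above than below 0. The log2 fold change was positive for 41 of 58 members, or 70.7%, and for 51.2% of all genes tested. Its median was 0.09 over the members and 0.10 without *Wdr6*, against 0.01 over all genes. Relative to the WT mean, the median member stood at 0.12, 0.13 and 0.11 on the log2 scale in WDR6-WKO replicates 1 to 3 and between -0.02 and 0.02 in the WT libraries. All 3 WDR6-WKO libraries were thus above all WT libraries on this measure, replicate 3 included, while the median over all genes stayed between -0.00 and 0.01 in every library. Unadjusted p-values under 0.05 were reached by 19 members, or 32.8%, against 28.1% of all genes, and most of these were not called. Of them 17 were higher, 29.3% of the members against 14.6% of all genes, and 2 were lower, 3.45% against 13.6%. DESeq2 called *Trmt1l* and *Pus1* besides the 6 members, which made 13.8% of the members against 14% of all genes. With limma-voom *Trmt1l* was added to the 6, which made 12.1% against 12.8%.

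**Figure D2:**
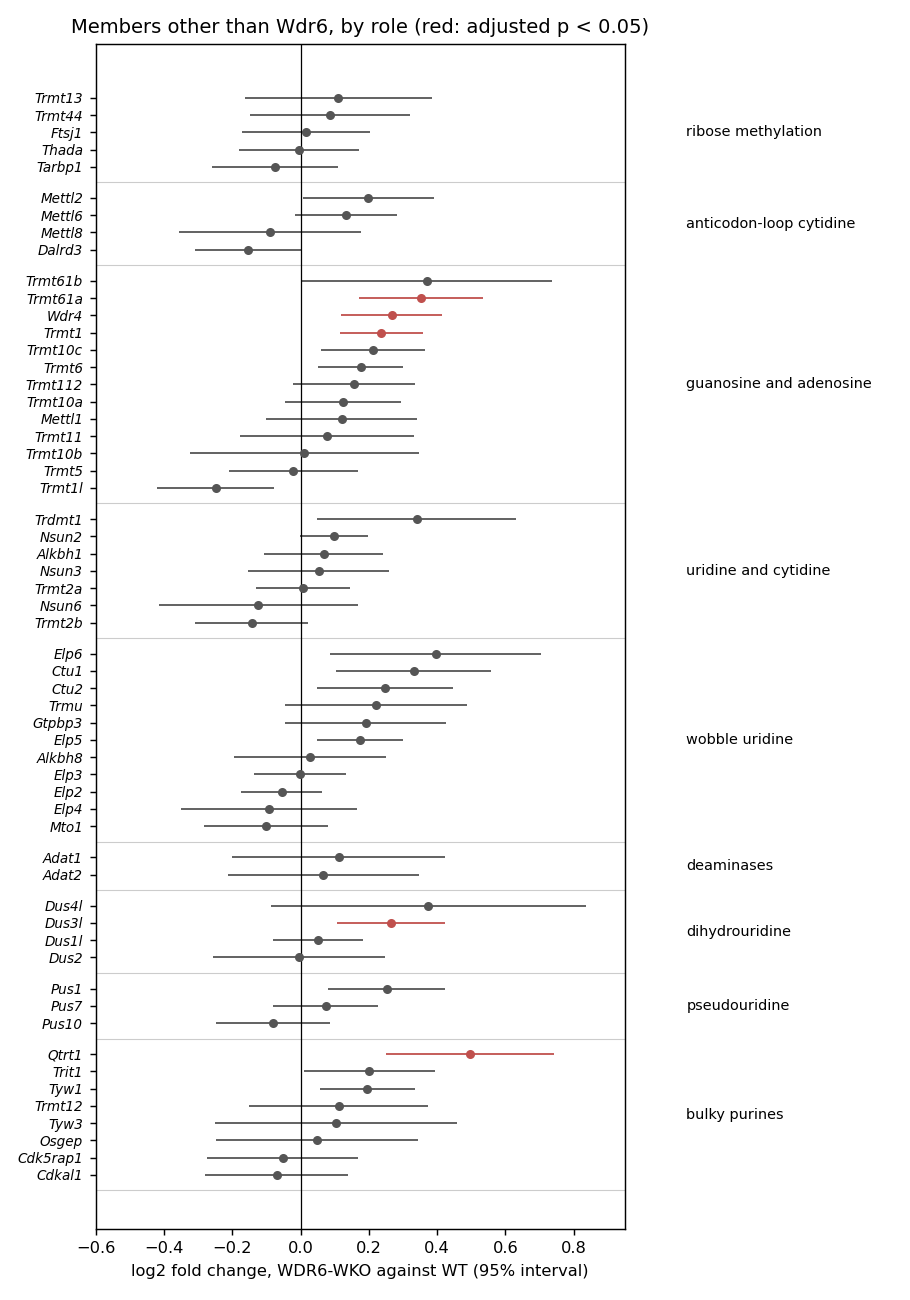
Log2 fold change (WDR6-WKO against WT) of the 57 members other than *Wdr6* as points with 95% intervals, grouped by role, with the 5 called members in red. Points lie between -0.25 and 0.50, and more of them are to the right of 0 than to the left.

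The proximal promoters of 3 members called higher and of *Ftsj1*, the partner that did not change detectably, are shown, so that their letters stand beside the fold changes. Each run holds the 250 bases before the gene start in RefSeq (GRCm38.p6), written along the gene's strand, and capitals mark a match to the motifs searched. Matching by symbol gave such a sequence for 53 of the 60 genes. *Qtrt1* lies downstream of chr9:21411587-21411836 on the plus strand, *Trmt61a* of chr12:111677855-111678104 on the plus strand, *Dus3l* of chr17:56764501-56764750 on the plus strand and *Ftsj1* of chrX:8252407-8252656 on the minus strand.
Qtrt1: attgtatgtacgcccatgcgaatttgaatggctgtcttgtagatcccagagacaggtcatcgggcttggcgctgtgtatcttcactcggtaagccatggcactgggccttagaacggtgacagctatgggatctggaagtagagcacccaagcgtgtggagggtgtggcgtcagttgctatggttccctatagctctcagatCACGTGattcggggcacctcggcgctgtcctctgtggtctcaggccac
Trmt61a: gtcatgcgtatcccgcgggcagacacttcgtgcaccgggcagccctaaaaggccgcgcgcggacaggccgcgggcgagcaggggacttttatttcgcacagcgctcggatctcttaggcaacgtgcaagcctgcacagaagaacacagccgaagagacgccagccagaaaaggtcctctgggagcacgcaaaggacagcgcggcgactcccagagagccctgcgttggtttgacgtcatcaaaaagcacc
Dus3l: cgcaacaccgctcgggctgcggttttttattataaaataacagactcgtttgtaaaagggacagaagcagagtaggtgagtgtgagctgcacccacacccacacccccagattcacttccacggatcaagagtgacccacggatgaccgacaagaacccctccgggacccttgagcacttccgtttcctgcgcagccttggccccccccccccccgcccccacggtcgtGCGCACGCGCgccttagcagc
Ftsj1: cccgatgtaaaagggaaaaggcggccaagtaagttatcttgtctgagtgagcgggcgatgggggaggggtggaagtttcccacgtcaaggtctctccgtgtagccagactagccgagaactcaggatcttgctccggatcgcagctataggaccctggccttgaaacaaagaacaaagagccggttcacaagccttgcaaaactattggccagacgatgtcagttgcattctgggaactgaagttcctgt

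The motifs were searched on both strands and did not overlap each other in the sequences shown. The E-box CACGTG, in capitals in *Qtrt1*, was found in 5 of 53 member promoters, or 9.43%, and in 9.73% of the 10569 promoters of genes tested. The NRF1 motif (GCGC, any pair of bases, then GCGC), in capitals in *Dus3l*, was found in 7 member promoters, or 13.2%, and in 11.4% of those of genes tested. The members with the E-box and those with the NRF1 motif include *Pus3*, whose expression was not tested. The ETS core CCGGAAG was found in 13 member promoters, or 24.5%, against 15.2%. None of these 13 belonged to a called member, but only 6 members were called, too few to draw a contrast. The C/EBP-ATF response element TGATGNAAT was found only in *Pus7* among the members, 1.89% against 0.539%. None of these motifs occurs in the windows of *Trmt61a* and *Ftsj1*.

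The methyltransferases of guanosine and adenosine held 3 of the 5 genes called higher. Of the 13 genes in this group, 11, or 84.6%, had a positive log2 fold change, against 51.2% of all genes, and the median was 0.16. The 3 called higher were 23.1% of the group against 6.65% of all genes, and none was called lower, against 6.18%. At an unadjusted p under 0.05, 6 were higher, 46.2% against 14.6% of all genes, and 1, *Trmt1l*, was lower, 7.69% against 13.6%. *Trmt61a*, the catalytic subunit of the enzyme that methylates an adenosine in the T loop of cytosolic tRNAs, read 21.0, 20.4, 23.1 and 19.4 CPM in WT and 27.8, 28.4 and 24.0 CPM in WDR6-WKO. The groups did not overlap, although WDR6-WKO replicate 3 was close to the highest WT library. *Trmt61a* rose by 0.35 on the log2 scale (s.e., the standard error, 0.09; adjusted p = 0.0132), or to 127% of the WT mean. Its partner *Trmt6*, which binds the tRNA, was counted at 37.4 to 38.7 CPM in WT and at 41.7 to 44.0 CPM in WDR6-WKO, also without overlap, but missed the threshold (log2 fold change 0.18, adjusted p = 0.0618). The row for *Trmt61b*, the mitochondrial relative, had a log2 fold change of 0.37 with a wide 95% interval from 0.00 to 0.74 and an adjusted p of 0.173. Its counts were the lowest of the members other than *Wdr6*, down to 47 in a library, which alone gives a counting error of 14.6%. GENCODE types the only gene of this symbol as antisense rather than protein-coding, and it shares exonic bases with *Spdya* on the opposite strand, so its value and its level per kilobase are uncertain.

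*Wdr4*, a WD-repeat protein like WDR6, holds METTL1 on the tRNA for the methylation of a guanosine in the variable loop. It stood at 35.7, 31.2, 32.7 and 34.0 CPM in WT and at 40.8, 42.2 and 37.5 CPM in WDR6-WKO. All 3 WDR6-WKO libraries were above the highest WT library. *Wdr4* rose by 0.27 on the log2 scale (s.e. 0.07, adjusted p = 0.0194 in the edgeR test). Of its exonic bases 10.8% are shared with an antisense transcript that was not in the table. *Mettl1*, the catalytic subunit, spread over 15.1 to 18.3 CPM in WT and 15.5 to 20.2 CPM in WDR6-WKO and was not called (log2 fold change 0.12, adjusted p = 0.489).

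*Trmt1*, which dimethylates a guanosine between the D arm and the anticodon arm, and its relative *Trmt1l* stood on opposite sides of 0. *Trmt1* read 72.7, 71.3, 68.4 and 70.4 CPM in WT and 81.4, 89.4 and 79.1 CPM in WDR6-WKO, and rose by 0.24 on the log2 scale (s.e. 0.06, adjusted p = 0.0127). *Trmt1l* read 31.3, 35.0, 32.4 and 33.0 CPM in WT and 24.8, 27.8 and 30.8 CPM in WDR6-WKO. Its ranges did not overlap either, with the WDR6-WKO libraries lower, but replicate 3 was next to the lowest WT library. The log2 fold change of *Trmt1l* was -0.25 (s.e. 0.08), just short of the threshold (adjusted p = 0.0547), and *Trmt1l* was called by DESeq2 (adjusted p = 0.0438) and by limma-voom (adjusted p = 0.0462).

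Among the others in this group, *Trmt10c*, a subunit of mitochondrial RNase P that also methylates tRNA, was counted at 29.4 to 34.6 CPM in WT and 36.5 to 39.7 CPM in WDR6-WKO (log2 fold change 0.21, adjusted p = 0.0653). *Trmt112*, the small protein that activates TRMT11 and ALKBH8, had a log2 fold change of 0.16 and an adjusted p of 0.245. It shares 33.2% of its exonic bases with *Prdx5* on the opposite strand. *Trmt10a*, *Trmt10b*, *Trmt11* and *Trmt5* lay between -0.02 and 0.13 and were not called.

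**Figure D3:**
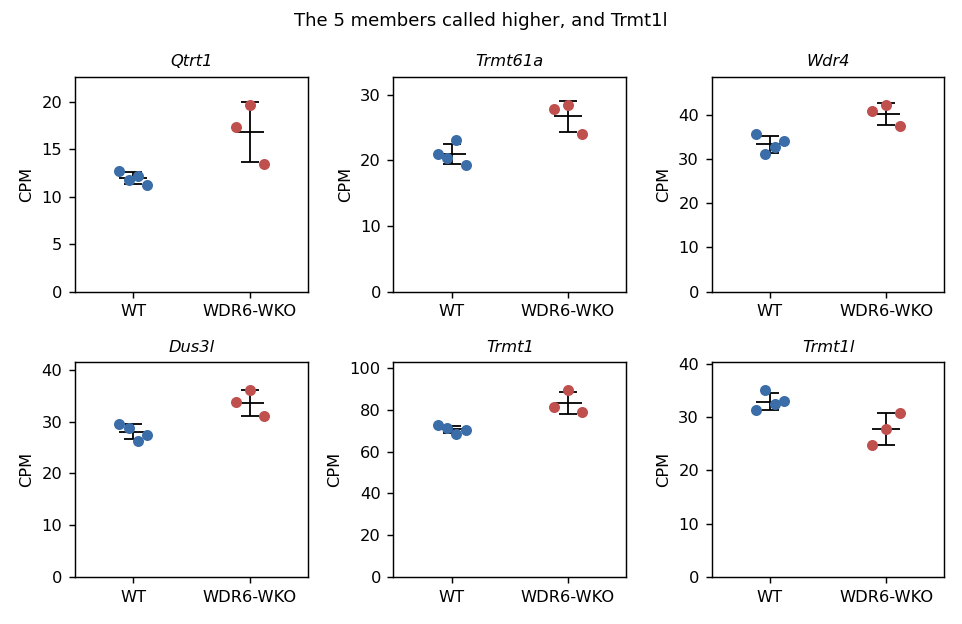
CPM of the 5 members called higher and of *Trmt1l* in each library, with WT (n = 4) in blue and WDR6-WKO (n = 3) in red, the mean and s.d. as black lines and each axis starting at 0. In every panel the groups do not overlap, and WDR6-WKO replicate 3, the rightmost red point, is the one nearest to WT.

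Purines of the anticodon loop carry the bulkiest modifications, and *Qtrt1* had the largest called rise of any member. QTRT1 is the catalytic subunit of the enzyme that replaces the wobble guanosine of some tRNAs with queuine, a base taken up from diet and gut bacteria. *Qtrt1* read 12.7, 11.8, 12.2 and 11.2 CPM in WT and 17.4, 19.7 and 13.5 CPM in WDR6-WKO. The WT libraries were tightly grouped, whereas the WDR6-WKO libraries were spread, with replicate 3 only just above WT. The log2 fold change was 0.50 (95% interval 0.25 to 0.74, adjusted p = 0.0105 in the edgeR test), and 0.62 without replicate 3. *Qtrt2*, which encodes the other subunit and is not among the 58, had a log2 fold change of 0.22 and an adjusted p of 0.143.

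The other 7 genes of this group were not called. *Trit1*, which attaches an isopentenyl group to adenosine next to the anticodon, read 13.2 to 15.4 CPM in WT and 15.7 to 17.9 CPM in WDR6-WKO without overlap (log2 fold change 0.20, adjusted p = 0.159). *Tyw1*, an enzyme of wybutosine synthesis on phenylalanine tRNA, reached 0.20 with an adjusted p of 0.0638, and the later enzymes *Trmt12* and *Tyw3* reached 0.11 and 0.10. *Osgep*, the catalytic subunit of the complex that makes threonylcarbamoyl adenosine, was at 0.05. *Cdk5rap1* and *Cdkal1*, the methylthiotransferases of mitochondrial and cytosolic tRNAs, were at -0.05 and -0.07. The lowest value in the group, that of *Cdkal1*, had a 95% interval from -0.28 to 0.14.

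None of the 11 enzymes of the wobble uridine was called, and 4 had an unadjusted p under 0.05, all higher, which is 36.4% against 14.6% of all genes. Their median log2 fold change was 0.17, and 7 of the 11 were above 0. *Elp3*, the catalytic subunit of Elongator, stood at -0.00, with 51.5 to 58.3 CPM in WT and 51.9 to 57.2 CPM in WDR6-WKO (95% interval -0.14 to 0.13), and *Elp2* at -0.06. Of the accessory subunits, *Elp4* was at -0.09, *Elp5* at 0.17 (adjusted p = 0.0677) and *Elp6* at 0.40 (adjusted p = 0.0866). *Elp5* ranges did not overlap, at 45.3 to 49.4 CPM in WT and 51.4 to 54.3 CPM in WDR6-WKO. *Elp6* read 7.06, 7.23, 5.32 and 8.64 CPM in WT and 9.60, 9.97 and 8.27 CPM in WDR6-WKO, and the ranges overlapped through WT replicate 4 and WDR6-WKO replicate 3. It passed the study's thresholds. Like *Dalrd3*, *Qtrt1*, *Alkbh8*, *Mto1* and *Pus3*, it lies on the same chromosome as *Wdr6*, at chr9:110305173-110322102.

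The thiolase subunits *Ctu1* and *Ctu2*, which place sulfur on the wobble uridine in the cytosol, had log2 fold changes of 0.33 (adjusted p = 0.0535) and 0.25 (adjusted p = 0.0986). *Ctu1* read 8.40 to 10.3 CPM in WT and 11.0 to 12.5 CPM in WDR6-WKO, with no overlap. For *Ctu2* 47.3% of the exonic bases are shared with *Piezo1* on the opposite strand, so its value is uncertain. *Alkbh8*, which methylates the side chain of the same base, was at 0.03. Mitochondrial counterparts were at 0.22 for the thiolase *Trmu*, 0.19 for *Gtpbp3* and -0.10 for *Mto1*, the last pair acting together. Medians of the wobble uridine group relative to WT were 0.18 and 0.21 in WDR6-WKO replicates 1 and 2 and 0.05 in replicate 3, against -0.06 to 0.08 in the WT libraries. Replicate 3 thus fell within the WT range for this group.

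Of the dihydrouridine synthases, which reduce uridines in the D loop and elsewhere, only *Dus3l* was called. It read 29.6, 28.8, 26.3 and 27.4 CPM in WT and 33.8, 36.1 and 31.1 CPM in WDR6-WKO. The WDR6-WKO libraries were all above the WT libraries, and the log2 fold change was 0.26 (s.e. 0.07, adjusted p = 0.0287 in the edgeR test). *Dus4l* had the larger fold change, 0.37, but its libraries scattered over 3.93 to 7.13 CPM in WT and 5.32 to 8.55 CPM in WDR6-WKO (adjusted p = 0.277). *Dus1l* was at 0.05 and *Dus2* at -0.00.

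None of the 3 pseudouridine synthases and 2 deaminases tested was called by edgeR, and *Pus1* alone had an unadjusted p under 0.05. *Pus1*, which isomerizes uridines in cytosolic and mitochondrial tRNAs, read 39.9, 37.3, 34.1 and 35.4 CPM in WT and 45.3, 47.5 and 38.0 CPM in WDR6-WKO. Replicates 1 and 2 of the WDR6-WKO group were above every WT library and replicate 3 was not, and the log2 fold change of 0.25 missed the threshold (adjusted p = 0.0518), which it passed with DESeq2 (adjusted p = 0.0496). Of its exonic bases 23.8% are shared with a noncoding RNA on the opposite strand. *Pus7* was at 0.07 and *Pus10* at -0.08. *Adat1*, which makes inosine next to the anticodon of alanine tRNA, was at 0.11, and *Adat2*, a subunit of the wobble adenosine deaminase, at 0.07.

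Methyltransferases of uridine and cytidine, grouped with *Alkbh1*, which is not a methyltransferase itself, did not yield a call among 7 genes. Of these genes 1, *Trdmt1*, had an unadjusted p under 0.05, and their median log2 fold change was 0.05. *Nsun2*, the main cytosine methyltransferase of tRNA, was counted at 209 to 225 CPM in WT and 226 to 241 CPM in WDR6-WKO, without overlap but with a small difference (log2 fold change 0.10, adjusted p = 0.188). *Trdmt1*, a cytosine methyltransferase of the anticodon loop, read 4.20 to 5.29 CPM and 5.70 to 6.76 CPM (log2 fold change 0.34, adjusted p = 0.118). *Trmt2b*, the mitochondrial uridine methyltransferase, had the lowest value, -0.14 (adjusted p = 0.251), and its cytosolic relative *Trmt2a* was at 0.01. *Nsun3* and *Alkbh1*, which act in sequence on a mitochondrial wobble cytidine, were at 0.05 and 0.07, and *Nsun6* at -0.12.

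In the group that methylates cytidine in the anticodon loop, none of 4 genes was called, and 1, *Mettl2*, had an unadjusted p under 0.05. The values were split, with *Mettl2* and *Mettl6* at 0.20 (adjusted p = 0.164) and 0.13 (adjusted p = 0.226) and *Dalrd3* and the mitochondrial *Mettl8* at -0.15 and -0.09. *Mettl2* read 12.5 to 13.5 CPM in WT and 14.1 to 16.2 CPM in WDR6-WKO, and *Mettl6* 24.4 to 27.1 and 28.3 to 28.6 CPM, and neither overlapped. The remaining ribose methyltransferases, which act outside the anticodon, were at 0.11 for *Trmt13*, 0.09 for *Trmt44* and -0.07 for *Tarbp1*. All of these intervals included 0 apart from that of *Mettl2*.

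Of the 9 members assigned to mitochondrial tRNA, such as *Trmt10c*, *Trmu* and *Mto1*, 5 had a positive log2 fold change and the median was 0.05. None of them was called, and 2, or 22.2%, had an unadjusted p under 0.05, against 28.1% of all genes. The 49 other members tested had a median of 0.10, with 36 above 0. They include *Alkbh1* at 0.07 and *Pus1* at 0.25, which also act on mitochondrial tRNA, so the comparison depends on this assignment. The difference between these sets was not tested.

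The 5 genes called higher depended on which libraries were included. Without WDR6-WKO replicate 3, all 5 remained called with larger fold changes, and the number of called members rose from 6 to 16, or 27.6% beside 28.6% of all genes. *Trmt6*, *Trmt112*, *Elp5*, *Elp6*, *Ctu2*, *Gtpbp3*, *Pus1* and *Tyw1* were then called higher as well, and *Trmt1l* and *Pus10* lower. Without WDR6-WKO replicate 1 only *Trmt1* of the 5 was called (adjusted p = 0.0331), and *Qtrt1* had an adjusted p of 0.0526. Without WDR6-WKO replicate 2 none of the 5 was called, with adjusted p-values from 0.0725 for *Trmt1* to 0.153 for *Dus3l*. The share of all genes called fell as well, to 7.98% and 6.98%. Among WT libraries, leaving out replicate 2 ended the calls of *Wdr4* (adjusted p = 0.0740) and *Dus3l* (adjusted p = 0.0610). Leaving out replicate 3 ended those of *Trmt1* (0.0530), *Wdr4* (0.0647) and *Dus3l* (0.0993), and leaving out replicate 4 those of *Trmt61a* (0.0543) and *Dus3l* (0.0839). No direction changed for these 5 genes in any of these fits, and *Wdr6* was called in all of them. Scaling by library totals alone, with all libraries kept, called 12 members, or 20.7% against 12.9% of all genes. These were the 6 and *Trmt6*, *Trmt10c*, *Elp5*, *Ctu1*, *Pus1* and *Tyw1*.

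**Figure D4:**
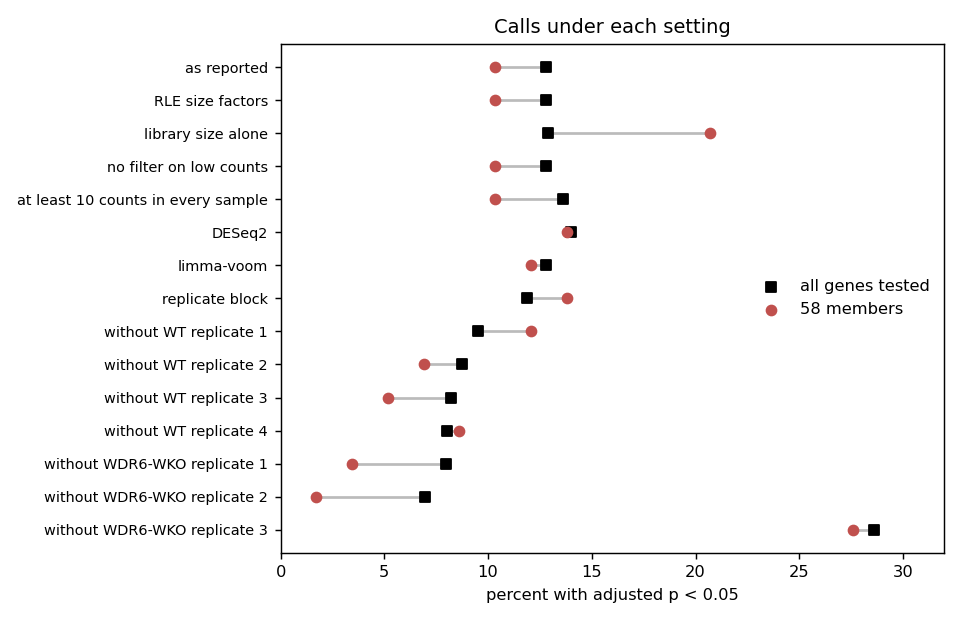
Percent of genes with an adjusted p under 0.05 under each setting, for the 58 members (red circles) and for all genes tested (black squares). Both shares are lowest without WDR6-WKO replicate 2, at 1.72% and 6.98%, and highest without replicate 3, at 27.6% and 28.6%, while library size alone gives 20.7% and 12.9%.

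Levels of different genes were compared as CPM per kilobase of merged exon length. The WT levels of the 58 members had a median of 3.91 and ran from 0.688 for *Tyw3* to 37.9 for *Nsun2*. Next to *Nsun2* came *Elp5* at 20.5 ± 0.880 (s.d., n = 4) and *Elp3* at 18.0 ± 1.01 (s.d., n = 4), and above *Tyw3* came *Trmt61b* at 1.03 ± 0.148 and *Trdmt1* at 1.25 ± 0.121 (s.d., n = 4 each). *Trmt61b* and *Trdmt1* therefore lay within about their spread of each other. *Wdr6* was in place 12 of this order at 10.6 ± 0.968 in WT, above *Ftsj1* at 4.26 ± 0.386 and *Thada* at 2.73 ± 0.148 (s.d., n = 4 each). In WDR6-WKO it stood at 0.571 ± 0.0430 (s.d., n = 3), below every other member. For 18 members more than 5% of the 50-base stretches also occur in other genes, and merged exons are longer than the transcripts in use, so these levels are approximate.

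**Figure D5:**
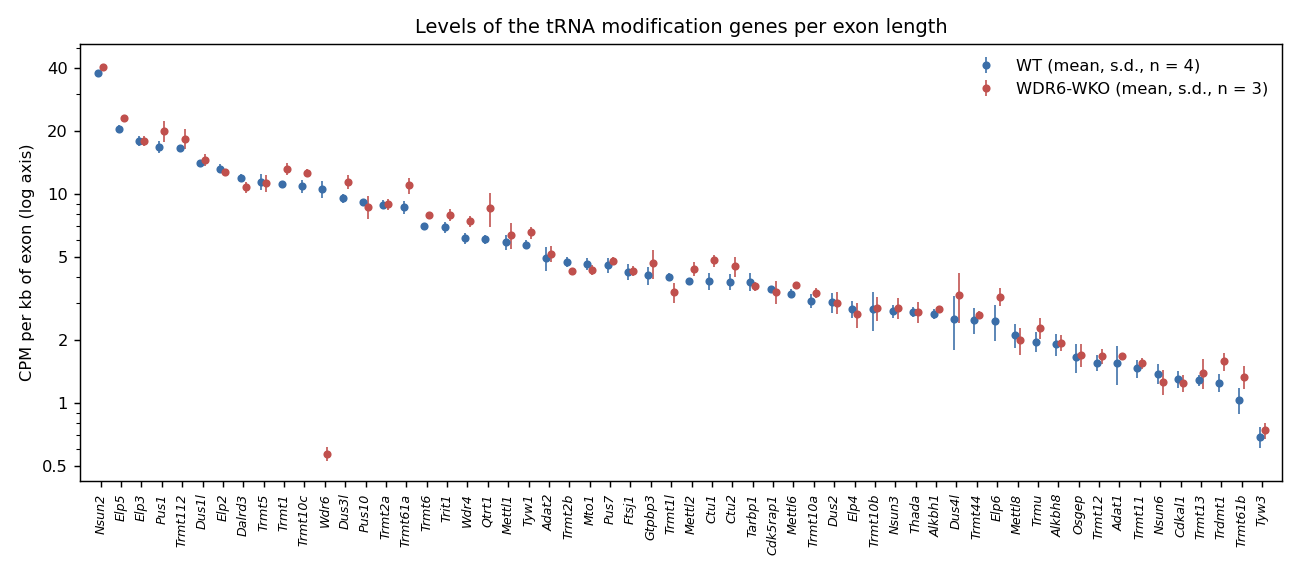
Level of the 58 members per kilobase of exon on a log axis, ordered by WT mean, with WT (n = 4) in blue and WDR6-WKO (n = 3) in red as means with s.d. *Wdr6* drops from 10.6 to 0.571, while the other members keep close to their WT place between 0.688 and 37.9.

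A further list of 37 symbols, which cover other subunits and enzymes of tRNA modification, had 32 genes among those tested. Of these 4 were called higher, or 12.5% against 6.65% of all genes, and none lower. *Yrdc*, which makes the activated threonylcarbamoyl group that OSGEP transfers, rose most by p. It read 26.8, 30.4, 28.1 and 29.5 CPM in WT and 39.5, 39.1 and 37.1 CPM in WDR6-WKO, so that the groups were well apart in all libraries. Its log2 fold change was 0.43 (s.e. 0.07, adjusted p = 0.000606 in the edgeR test). *Urm1*, the sulfur carrier of the wobble uridine thiolase, rose by 0.33 (adjusted p = 0.0171), *Dph3*, an Elongator cofactor, by 0.27 (adjusted p = 0.0439) and *Hsd17b10*, a partner of TRMT10C, by 0.22 (adjusted p = 0.0306). Positive values were found for 30 of the 32 genes, or 93.8%, with a median of 0.17, and 9, or 28.1%, had ranges that were wholly higher in WDR6-WKO, against 11.8% of all genes. Like the members, this list was chosen with earlier results of these data known, so it is not an independent check on their direction. No gene of this list had an unadjusted p under 0.05 on the lower side. DESeq2 and limma-voom also made 4 calls each, in fits that called 14% and 12.8% of all genes. Without WDR6-WKO replicate 3 the calls among these 32 rose to 10, in a fit that called 28.6% of all genes. They fell to 2 without WT replicate 1 or 2, where 9.53% and 8.74% of all genes were called. Only 1, *Yrdc*, was left without WT replicate 3 or 4 or WDR6-WKO replicate 1 or 2. Those fits called 6.98% to 8.21% of all genes.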

How the data were processed

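The table deposited by the authors holds raw read counts per gene symbol for 7 libraries of primary hepatocytes. Per the labels, reads were aligned to mm10 with Bowtie2 2.2.3, and the counting tool, annotation and strand are not given in the sources used here. No row totals fewer than 50 reads, and 21 symbols turned into dates were kept unnamed. Groups came from the genotype labels. WDR6-WKO was compared with WT in edgeR 4.0.16 (R 4.3.3) with TMM scaling, filterByExpr, the robust quasi-likelihood test and Benjamini-Hochberg adjustment over all genes tested, without a replicate block. The study's own tool was DESeq2. Scripts were tested on simulated data first. Exact permutation tests covered all 35 assignments of the libraries. Alternatives were other scalings and filters, DESeq2 1.42.0, limma-voom 3.58.1, a replicate block, other thresholds and leaving out each library. Depth let counting errors range from 1.36% to 14.6% in members other than *Wdr6*, beside a biological coefficient of variation of 7.40%. Members and lists were chosen with earlier results of these data known. The text names *Wdr6*, *Ftsj1*, *Thada*, *Dalrd3*, members called, past the study's thresholds or without overlap, the extremes of each group and of the levels, and gives the others by value. Exon lengths and overlaps came from GENCODE M21 (GRCm38), promoters from RefSeq.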

Additional observations from a re-analysis of the deposited data

Results flagged for a closer look

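In 3 of the 58 members, a WT library lay far from the other WT libraries, judged by its gap to the nearest of them against the range of the group. *Trmt2b* was low in WT replicate 2, at 20.2 CPM against 22.5 to 22.8 CPM in the others. *Adat1* was high in WT replicate 4, at 8.94 CPM against 5.97 to 6.28 CPM, and above all WDR6-WKO libraries as well. *Tyw1* was high in WT replicate 1, at 45.3 CPM against 40.8 to 41.5 CPM, and this library alone made the *Tyw1* ranges overlap with WDR6-WKO. By chance alone the rule would mark about 1 group in 20, or 2.9 of 58, beside the 3 found. The cause of these 3 values was not tested.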

How the results depend on the processing

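Of 623 values recomputed in 14 alternative fits or at other thresholds, 512 were labelled unchanged. For fold changes of genes this meant the same direction and side of the threshold. For the median of the members it meant a move smaller than the spread between replicates. Counts were labelled unchanged within a fixed ratio of the number reported, so that 4 or 8 members called in place of 6 passed. Members called numbered 12 (11 higher) with library size alone, or 20.7% against 12.9% of all genes, 15 at an adjusted p under 0.1, or 25.9% against 19.2%, and 1 at 0.01, or 1.72% against 5.83% (862 genes). Members called lower numbered 2 with DESeq2, beside 997 of all genes, and 2 with limma-voom, beside 933. Members past the study's thresholds numbered 3 with RLE size factors, 3 with DESeq2 and 19 without the fold threshold, and *Trmt61a* had stood only just above it. With library size alone the median log2 fold change was 0.12 over the members and 0.03 over all genes. In the reported fit these medians were 0.09 and 0.01. *Thada* and *Dus2* changed sign with library size alone, to 0.023 and 0.023. Ranges did not overlap for 18 members with RLE size factors and for 18 with library size alone. In the reported fit it was 16 members, beside 23.5% of all genes. The share of all genes was not counted under the other scalings, so nothing about the members is read from these numbers.
With each library left out in turn, genes called ranged from 1032 to 4233 (higher 570 to 2150, lower 462 to 2083), members called from 1 to 16 (higher 0 to 13, lower 1 to 3), members past the study's thresholds from 3 to 6 and the other tRNA modification genes called from 1 to 10. The median of the members ranged from 0.076 to 0.11, and log2 fold changes crossed 0 for *Ftsj1* (-0.046 to 0.045), *Thada* (-0.10 to 0.056), *Dus2* (-0.084 to 0.077) and *Trmt13* (-0.0076 to 0.23).
Libraries with the same replicate number did not deviate together (r = 0.04, 0.02 and 0.04), and only WDR6-WKO replicate 1 correlated best with its own number. A fit with the replicate number as a block, which drops WT replicate 4, called 8 members, or 13.8% against 11.9% of all genes. It added *Elp6* (0.51) and *Dus4l* (0.59), moved the median to 0.11, and left 2 calls among the other tRNA modification genes. Members were counted from 47 to 5430 reads in a library, *Wdr6* apart. Changes smaller than the 95% intervals were not detectable with this number of libraries, their spread and their depth. The cause of these differences between settings was not tested.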
